A study of Mus musculus with 8 samples.

Results

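The response of a preadipocyte to the adipogenic cocktail can be read gene by gene as the change in RNA level from day 0 to day 2. The question taken up here is where this response differed between a line carrying a Ddx6 knockout and its mock control. For each gene, the change in the TOM line was subtracted from the change in the line labelled Ddx6-KO. This difference of responses was tested for 15811 of the 46073 genes in the table, those that reached 1 FPKM or more in 2 or more of the 8 libraries. FPKM, the unit of the table, scales a gene's fragments to its length and to the library. All changes below are on the log2(FPKM + 1) scale, where a difference of 1 is close to a factor of 2 for a well-expressed gene and understates the change of a low one.

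Both lines derive from 3T3-L1, an embryonic mouse fibroblast line (Swiss albino in the labels) committed to the fat lineage. Both were transduced with a lentivirus carrying Cas9 and a guide RNA and selected with puromycin. The guide of the TOM line targets tdTomato, a fluorescent protein that the mouse genome does not encode, and the guide of the other line targets an exon of Ddx6. The 4 groups were TOM at day 0, TOM at day 2, Ddx6-KO at day 0 and Ddx6-KO at day 2, with 2 libraries of total RNA in each. The cocktail held dexamethasone (a glucocorticoid), IBMX (which raises cAMP) and insulin. The methods describe single-cell cloning after selection, so a clone and its genotype cannot be told apart as the source of a difference between the lines. Titles place libraries at day 0 or day 2, although the treatment note in the labels speaks of a harvest after induction for all. Whether a group’s 2 libraries stem from separate cultures is not stated in the sources used here. The p-values therefore measure the spread between these libraries, which may be technical.

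Adipogenesis proceeds through waves of transcription factors, C/EBPbeta and C/EBPdelta first and PPARgamma and C/EBPalpha later, which switch on genes of lipid storage while genes of the fibroblast and of the matrix are turned down. DDX6 is an RNA helicase of processing bodies, cytoplasmic granules that hold mRNAs under repression or on their way to decapping and decay. A difference of responses does not say at which day the lines stood apart, so levels at both days are given.

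Ddx6 itself (chromosome 9, 44604892 to 44640731, GRCm38) was read first. It stood at 11.3 and 19.9 FPKM in the TOM libraries at day 0 and at 28.8 and 28.4 FPKM at day 2. Libraries labelled Ddx6-KO held 27.2 and 31.9 FPKM at day 0 and 50 and 43 FPKM at day 2. The RNA of the targeted gene was thus not lower in the libraries labelled Ddx6-KO. The study checked the knockout at the protein, by western blotting, and reports its deletion, which an RNA level does not read. Its response was 0.88 in TOM and 0.64 in Ddx6-KO, a difference of -0.25 (95% interval -1.07 to 0.57, limma, adjusted p = 0.774). A level summed over the gene does not read a small lesion at the guide's site, and Ddx6-KO below names libraries by their label.

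The libraries were shallow and unequal. Approximate depth, read from the spacing of low FPKM values, in 1e6 fragments, ran from 1.5 to 5.7 in 7 libraries and was 21 in TOM day 0 library 1. The 10 highest genes took 41% to 59.5% of the FPKM sum, and small RNAs 36.7% to 53.3%. Libraries of a group correlated across genes with Pearson's r of 0.888 to 0.95. Markers of other cell types were read next. Of 11 macrophage markers in the table, 7 stayed under 1 FPKM in all libraries, among them Adgre1, Csf1r and Lyz2. Their summed FPKM was 6.49 to 7.54 in TOM day 0, 6.29 to 7.93 in TOM day 2, 11.2 to 13.1 in Ddx6-KO day 0 and 7.57 to 9.01 in Ddx6-KO day 2. Of 8 endothelial, 7 epithelial and 8 muscle markers, 4, 5 and 5 stayed under 1 FPKM in all libraries, among them Cdh5, Epcam and Myog. So did 5 of 8 chondrocyte markers and 5 of 7 pericyte markers, the latter with sums of 24.2 to 24.3 in TOM day 0, 10.3 to 10.9 in TOM day 2, 49.6 to 53.4 in Ddx6-KO day 0 and 33 in Ddx6-KO day 2. The 9 osteoblast markers summed to 1402 to 1551 in TOM day 0, 233 to 234 in TOM day 2, 3650 to 3902 in Ddx6-KO day 0 and 149 to 157 in Ddx6-KO day 2. Among them Spp1, osteopontin, stood at 1544 and 1386 FPKM in TOM day 0, 229 and 228 in TOM day 2, 3891 and 3639.8 in Ddx6-KO day 0 and 139 and 149.7 in Ddx6-KO day 2, while Bglap and Bglap2, the osteocalcin genes, were listed at 0 in all libraries. The part of these markers in the results below was not tested. None of the 9 preadipocyte markers stayed under 1 FPKM throughout. Their summed FPKM was 1699 to 1864 in TOM day 0, 1301 to 1341 in TOM day 2, 1215 to 1300 in Ddx6-KO day 0 and 1417 to 1505 in Ddx6-KO day 2. Of the 8 tested, 5 were lower and none higher in Ddx6-KO than TOM at day 0 (limma, adjusted p under 0.05), with a median of -1.45. At day 2, 4 were lower and 1 was higher. Over all genes tested, 4.81% were lower at day 0 and 8.58% at day 2. In bulk RNA, fewer cells of a type and less RNA per cell cannot be told apart.

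The response differed between the lines for 663 genes (limma, adjusted p under 0.05), 320 with a higher and 343 with a lower change in the libraries labelled Ddx6-KO. These are 2.02% and 2.17% of the genes tested, and 2916 genes had an unadjusted p under 0.05. By their behaviour in each line, 88 of the 663 passed in both lines in opposite directions, 153 responded in TOM only and 189 in Ddx6-KO only. A gene was counted for one line only when its change in the other line missed the threshold and was under 0.5 in size. A further 52 passed in TOM and 102 in Ddx6-KO with an unpassed change of 0.5 or more in the other line, 60 passed in both lines in the same direction, and 19 passed in neither. For reference, 3.4% of all genes tested rose and 3.74% fell in TOM cells, while 4.8% rose and 5.85% fell in Ddx6-KO. These 1130 calls in TOM were 634 with TOM day 0 library 1 dropped and 523 and 585 with TOM day 2 library 1 or 2 dropped, and the 1684 in Ddx6-KO were 464 and 509 with Ddx6-KO day 0 library 1 or 2 dropped and 879 with Ddx6-KO day 2 library 1 dropped.

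**Figure D1:**
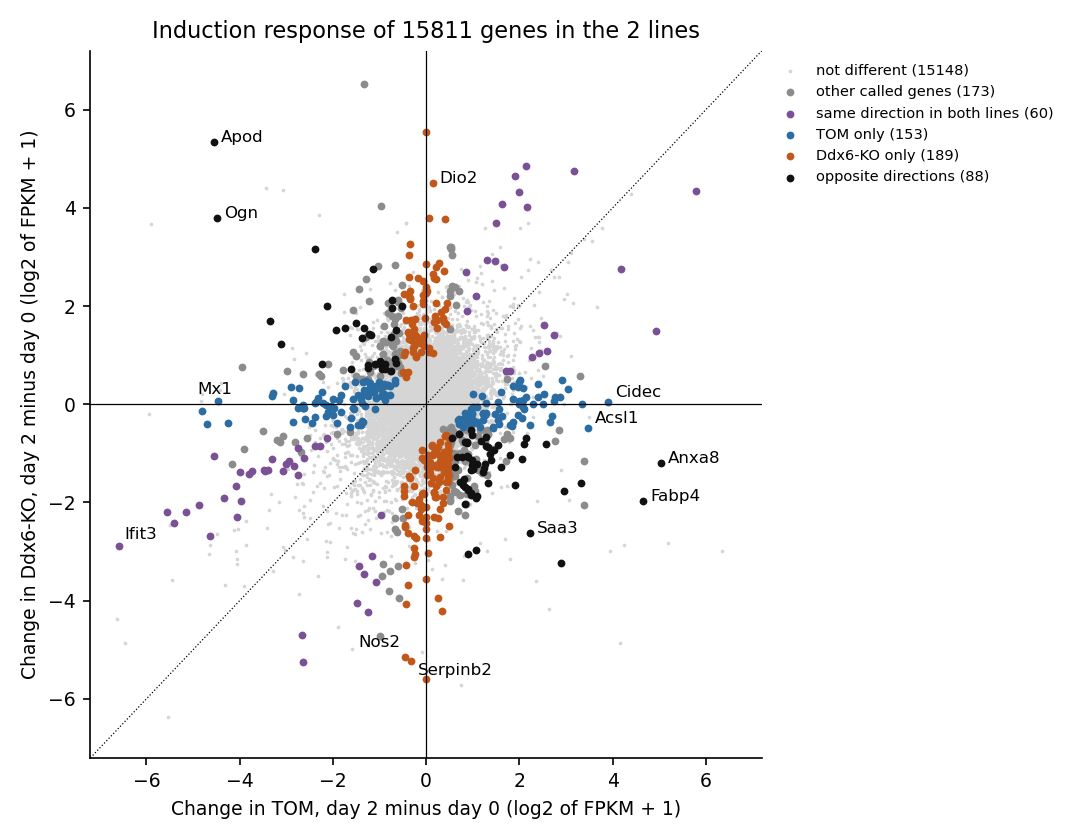
Change from day 0 to day 2 in TOM (x axis) against that in Ddx6-KO (y axis), in log2(FPKM + 1), 1 point per gene, for 15811 genes. Colours mark how the genes with a different response behaved, and the dotted line marks equal responses. The 88 genes with opposite responses (black) lie in the upper left and lower right corners, with Apod and Ogn at one end and Fabp4 and Anxa8 at the other.

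The count rested on every library to some extent. With Ddx6-KO day 0 library 1 or 2 dropped it was 106 higher with 101 lower and 99 higher with 113 lower. With TOM day 2 library 1 or 2 dropped it was 145 with 134 and 136 with 130, and with TOM day 0 library 1 or 2 dropped it was 186 with 209 and 178 with 242. With Ddx6-KO day 2 library 1 or 2 dropped it was 221 with 270 and 252 with 345. A total of 165 genes passed whichever single library was left out, among them 25 of the 32 and 45 of the 56 genes of the opposite kinds described next. Rescaling FPKM to an equal sum in every library (TPM) moved the median difference of all genes from 0.04 to -0.13 and the split to 193 higher and 366 lower. The share of higher calls thereby went from 48.3% to 34.5%.

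Apod and Ogn had the 2 largest differences of the 663 genes, and both went from high to low in one line and from low to high in the other. Apod (ENSMUSG00000022548) encodes a secreted lipocalin that carries small lipids (chromosome 16, 31296192 to 31314808, minus strand, GRCm38). It stood at 492 and 473 FPKM in TOM at day 0 and at 18.3 and 21 FPKM at day 2, against 8.61 and 11.6 FPKM and 467 and 424 FPKM in the libraries labelled Ddx6-KO. Ogn (ENSMUSG00000021390) encodes osteoglycin, a small leucine-rich proteoglycan that binds collagen fibrils (chromosome 13, 49608046 to 49624501, plus strand). It went from 126 and 111 to 4.78 and 3.86 FPKM in TOM and from 31.8 and 33.6 to 459 and 469 FPKM in Ddx6-KO. In both genes the lines changed places between the days, and no library of a line overlapped between days. The difference of responses was 9.89 for Apod and 8.28 for Ogn (standard errors 0.23 and 0.2, limma, adjusted p = 5.03e-06 for each). Both calls held without any single library.

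In all, 32 genes fell in TOM and rose in Ddx6-KO, with a median change of -1.20 in TOM and of 1.4 in Ddx6-KO. Among them were oxidoreductases of steroids and retinoids. Akr1c14, a 3-alpha-hydroxysteroid dehydrogenase of the aldo-keto reductase family, went from 8.98 and 5.94 to 0.357 and 0.861 FPKM in TOM and from 6.99 and 5.47 to 60.7 and 65.5 FPKM in Ddx6-KO. Adh7, an alcohol dehydrogenase active on retinol, went from 9.45 and 7.64 to 3.42 and 3.17 FPKM in TOM and from 4 and 5.99 to 39.8 and 37.9 FPKM in Ddx6-KO. Their differences were 5.54 and 3.9 (limma, adjusted p = 0.000666 and 0.00113). The lines overlapped at day 0 for Akr1c14, so its distance between them was that of day 2.

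Others encode secreted or surface proteins. The CC chemokine gene Ccl9 mirrored itself, at 36.6 and 47.7 FPKM before and 10.3 and 7.38 FPKM after induction in TOM and at 13.9 and 8.01 and then 55.9 and 36.9 FPKM in Ddx6-KO. P2rx3, an ATP-gated ion channel best known from sensory neurons, fell from 18.7 and 16.3 to 1.4 and 0.915 FPKM in TOM and rose from 0.541 and 0 to 1.85 and 1.97 FPKM in Ddx6-KO. Cdh26, a cadherin, went from 10.6 and 9.04 to 0 and 0.134 FPKM in TOM and from 0.256 and 0.405 to 3.01 and 3.6 FPKM in Ddx6-KO. Among genes of the fibrillar matrix, Col11a1 (a minor fibrillar collagen chain) and Adamts2 (the protease that trims procollagen) differed by 2.9 and 2.86, and the membrane collagenase gene Mmp14 by 2.04. Adamts2 stood at 10.5 and 11 FPKM and then 6.24 and 5.87 FPKM in TOM, and at 5.46 and 5.52 FPKM and then 26.3 and 27.9 FPKM in Ddx6-KO. Plk2, a polo-like kinase gene that p53 can induce, changed by -2.23 in TOM against 0.81 in Ddx6-KO, and Osr1, a zinc finger gene of mesenchymal progenitors, by -0.75 and 1.38. Each of these calls of the difference held without any single library. Fibin, encoding a secreted protein, differed by 3.3.

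The reverse, a rise in TOM and a fall in Ddx6-KO, was seen for 56 genes, with a median change of 1.07 in TOM and of -1.22 in Ddx6-KO. Fabp4 (ENSMUSG00000062515), the fatty acid carrier of adipocytes (chromosome 3, 10204088 to 10208576), went from 17.5 and 21.1 to 520.1 and 496 FPKM in TOM. Under the Ddx6-KO label it went from 27.5 and 26.6 to 8.03 and 4.66 FPKM, below all other libraries. Dgat2, which makes triglyceride from diacylglycerol, went from 1.49 and 1.26 to 11.8 and 14.6 FPKM in TOM and from 6.01 and 5.83 to 2.89 and 3.01 FPKM in Ddx6-KO. The differences were -6.63 and -3.39 (standard errors 0.32 and 0.28, limma, adjusted p = 0.000229 and 0.00143). The Ddx6-KO libraries thus started above TOM for Dgat2 and ended below it.

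The acute phase genes Saa3 and Lcn2, encoding a serum amyloid and a siderophore-binding lipocalin, started far higher in the libraries labelled Ddx6-KO. Saa3 went from 92.2 and 78 to 401 and 396 FPKM in TOM and from 2650.4 and 2195 to 343 and 445 FPKM in Ddx6-KO, so that the lines overlapped at day 2. Lcn2 went from 145 and 151 to 276 and 276 FPKM in TOM and from 1052 and 895 to 120.3 and 112 FPKM in Ddx6-KO. Anxa8, a calcium-dependent phospholipid binder, rose from 2.38 and 1.39 to 95.6 and 88.8 FPKM in TOM, while in Ddx6-KO it went from 4.97 and 5.32 to 2.34 and 1.14 FPKM. The differences of responses were -4.84, -3.95 and -6.23 in that order (limma, adjusted p = 0.000309, 0.000229 and 0.000666).

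The 56 also held single genes of receptors, transcription factors and secreted signals. Il13ra1, a receptor subunit for IL-4 and IL-13, went from 7.98 and 7.86 to 19 and 16.6 FPKM in TOM and from 39.6 and 42.3 to 4.34 and 4.32 FPKM in Ddx6-KO. The AP-1 subunit genes Fosl1 and Junb differed by -3.17 and -2.29, the growth factor gene Vegfa by -2.89 and the cytokine gene Il6 by -2.82. Metal-binding and detoxifying proteins were among them, with Mt2 (metallothionein) at -2.9 and Mgst3 (a microsomal glutathione transferase) at -3.55. So were Scarb1, the receptor for high-density lipoprotein (-2.6), Col18a1, a basement membrane collagen (-2.54), and Fam110c, whose gene product associates with the centrosome (-4.72). Bhlhe40, a repressor tied to the clock, went from 7.84 and 7.49 to 15.2 and 13.2 FPKM in TOM and from 39.5 and 33.8 to 10.7 and 13.7 FPKM in Ddx6-KO. Each of these calls held without any single library.

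**Figure D2:**
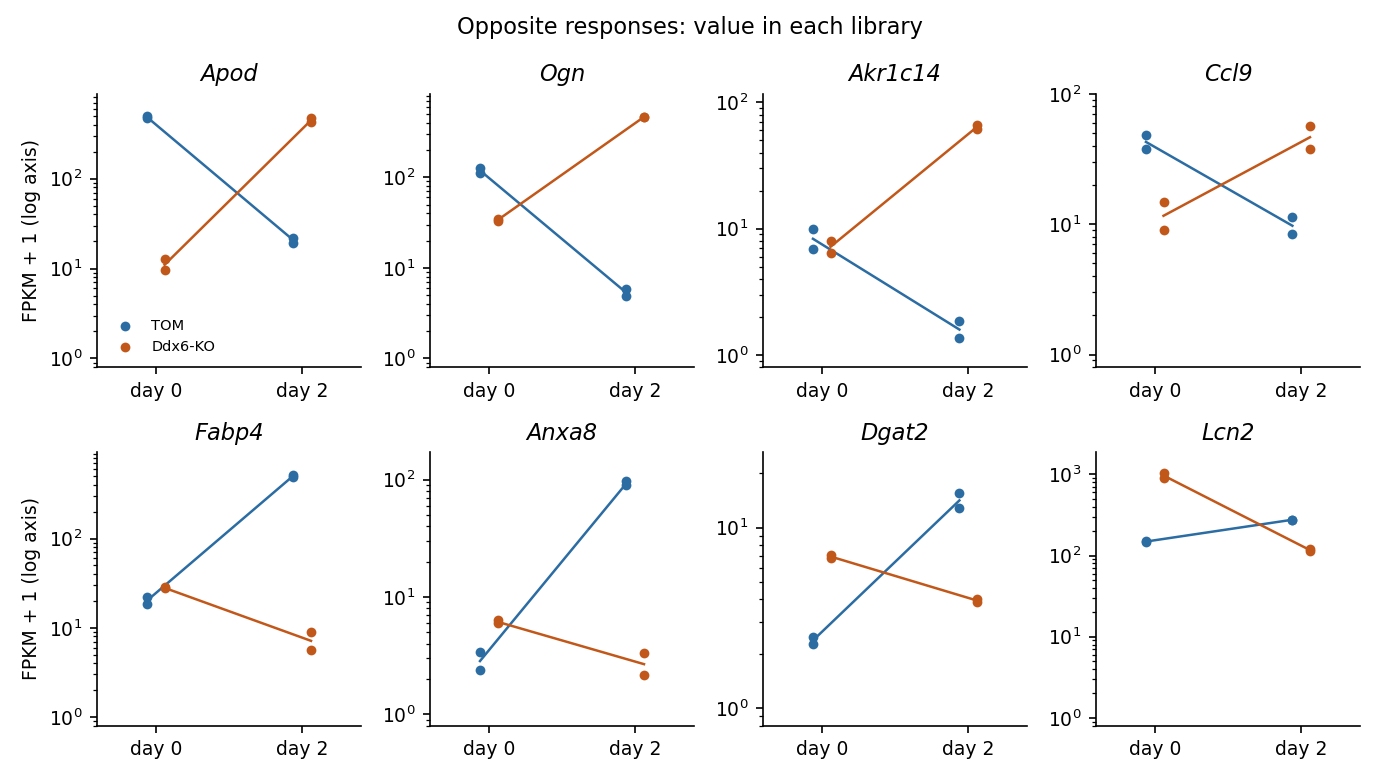
FPKM + 1 on a log axis at day 0 and day 2 for 8 genes with opposite responses, 1 point per library, with lines through the mean of log2(FPKM + 1) of TOM (blue) and Ddx6-KO (orange). In the upper row the blue lines fall and the orange lines rise, and in the lower row the reverse. The 2 libraries of a group lie close to each other beside the distance between days.

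The number of opposite genes moved with the libraries, although most single calls did not. Genes lower in TOM and higher in Ddx6-KO numbered 10 and 9 with Ddx6-KO day 0 library 1 or 2 dropped, 12 and 13 with TOM day 2 library 1 or 2 dropped, 13 and 20 with TOM day 0 library 1 or 2 dropped, and 16 and 21 with Ddx6-KO day 2 library 1 or 2 dropped. The reverse kind numbered 20 and 20, 21 and 21, 37 and 32, and 41 and 44 in that order. The test of the difference itself held without any single library for 25 of the 32 and 45 of the 56.

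A response in TOM only was a rise for 73 genes and a fall for 80. Among those that rose were enzymes that charge, store and release fatty acids. Acsl1, which activates long-chain fatty acids, went from 9.1 and 9.32 to 107 and 117 FPKM in TOM and from 7.54 and 8.31 to 5.4 and 5.4 FPKM in the libraries labelled Ddx6-KO. Its change in Ddx6-KO was -0.48 (95% interval -0.82 to -0.14), so the interval holds a fall of some size but no rise of the TOM kind. Abhd5, the co-activator of triglyceride lipase, went from 20.1 and 21.1 to 177 and 149 FPKM in TOM and from 39.7 and 32.3 to 47.6 and 53.6 FPKM in Ddx6-KO, where its change was 0.49 (95% interval 0.11 to 0.86). Gpat3, an enzyme of the first step of glycerolipid synthesis, went from 0.795 and 0.647 to 11.3 and 8.55 FPKM in TOM and from 1.35 and 1.84 to 0.739 and 1.3 FPKM in Ddx6-KO. Cidec, which fuses lipid droplets, went from 0.309 and 0.45 to 20.6 and 18.5 FPKM in TOM and was at 0.226 and 0.428 and then 0.869 and 0 FPKM in Ddx6-KO. The differences were -3.95, -2.43, -3.02 and -3.85 (limma, adjusted p = 0.000309, 0.0021, 0.00744 and 0.00685). Before induction the lines overlapped or stood within a factor of 3 for these 4 genes, and after it the TOM libraries stood above all Ddx6-KO libraries.

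The same class held Pnpla2, the triglyceride lipase itself, which went from 6.26 and 4.87 to 43.6 and 43.5 FPKM in TOM and from 9.36 and 11 to 16.4 and 7.91 FPKM in Ddx6-KO. Its difference of -2.61 (limma, adjusted p = 0.0191) missed the threshold with any TOM or either Ddx6-KO day 0 library dropped. Nfil3, a bZIP transcription factor, changed by 2.4 in TOM against 0.14 in Ddx6-KO, and Hp, haptoglobin, by 2.52 and 0.21, the second value of each missing the threshold. The stress-inducible mTORC1 inhibitor gene Ddit4 went from 11.3 and 10 to 56.4 and 50.8 FPKM in TOM and from 45.8 and 44.1 to 35.2 and 31.7 FPKM in Ddx6-KO, whose day 0 libraries already stood near the TOM day 2 level. Prl2c5, of the prolactin-like proliferin family, went from 4.64 and 4.41 to 33.7 and 36.4 FPKM in TOM and was at 0.376 and 0 and then 0 and 0 FPKM in Ddx6-KO. Proliferin genes are near-identical copies among which reads may be split, so the level of a single copy is uncertain. Mir155hg, the host transcript of miR-155, and Krt15, a keratin gene, differed by -2.72 and -2.68. Mir155hg lost its call with library 1 of Ddx6-KO day 0, library 1 of TOM day 0 or either TOM day 2 library dropped, and Krt15 with any library other than Ddx6-KO day 2 library 2 dropped.

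Among genes with a fall in TOM only were some of the interferon response, lower in the libraries labelled Ddx6-KO before induction. Mx1, an antiviral GTPase, went from 36.9 and 33.3 to 0.309 and 0.279 FPKM in TOM and from 1.06 and 0.955 to 1.06 and 0.62 FPKM in Ddx6-KO. Ifi47, an interferon-gamma-inducible GTPase, went from 32.7 and 22.6 to 0.265 and 0.719 FPKM in TOM and from 1.83 and 1.08 to 1.32 and 0.513 FPKM in Ddx6-KO. At 1.83 FPKM or less in Ddx6-KO before induction, Mx1 and Ifi47 had little room to fall there. Their place among TOM-only genes therefore says little about a response in Ddx6-KO. Bst2 (tetherin) went from 423 and 297 to 14.7 and 10.9 FPKM in TOM, and from 71.9 and 49.3 to 46.6 and 42.8 FPKM in Ddx6-KO, so that it ended higher there. The differences were 4.66, 3.88 and 4.29 (limma, adjusted p = 0.000784, 0.00627 and 0.00141). Tgtp2, another interferon-inducible GTPase with a close copy, had a difference of 4.53 (limma, adjusted p = 0.0458) that was lost with any library other than Ddx6-KO day 2 library 1 dropped.

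Other genes with a fall in TOM only were of mixed function. Sparcl1, a SPARC-like matrix protein, went from 43.1 and 49.5 to 5.63 and 5.41 FPKM in TOM and from 3.96 and 6.5 to 5.68 and 5.34 FPKM in Ddx6-KO, already at the TOM day 2 level before induction. Islr, a secreted leucine-rich repeat protein of stromal cells, changed by -2.64 in TOM against -0.01 in Ddx6-KO (95% interval of the second -0.39 to 0.38). The actin-binding genes Tpm1 (tropomyosin) and Cnn2 (calponin) changed by -2.45 and -1.87 in TOM, against -0.39 and 0.09 in Ddx6-KO. Vcam1, an adhesion molecule of stromal cells, changed by -1.92 in TOM against -0.38 in Ddx6-KO. Plscr2, a phospholipid scramblase gene, did not differ between the lines past the threshold at day 0. It went from 12 and 10.2 to 0.963 and 0.679 FPKM in TOM and from 17.7 and 17.6 to 20.6 and 24.3 FPKM in Ddx6-KO. The differences of these 6 genes ran from 1.54 to 3.06, and each call held without any single library. The class also held Lpl, lipoprotein lipase, chosen here after its values were seen because it is usually named as an adipocyte marker. It fell from 195 and 173 to 83 and 89.1 FPKM in TOM and stood at 9.94 and 12.9 and then 12.2 and 12.8 FPKM in Ddx6-KO.

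The TOM-only genes that rose numbered 13 and 20 with Ddx6-KO day 0 library 1 or 2 dropped, 20 with either TOM day 2 library dropped, 38 with TOM day 0 library 1 dropped, 42 with Ddx6-KO day 2 library 1 dropped and 48 with Ddx6-KO day 2 library 2 dropped. Those that fell numbered 17 with either Ddx6-KO day 0 library dropped, 28 and 27 with TOM day 2 library 1 or 2 dropped, 34 and 40 with TOM day 0 library 1 or 2 dropped, and 47 with Ddx6-KO day 2 library 1 dropped. The test of the difference held without any single library for 13 of the 73 and 11 of the 80.

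A response in the libraries labelled Ddx6-KO only was a rise for 75 genes and a fall for 114. Dio2, the deiodinase that activates thyroid hormone, was near the floor in 6 libraries, at 0.217 and 0.208 and then 0.288 and 0.39 FPKM in TOM and 0.464 and 0.343 FPKM in Ddx6-KO at day 0, and reached 33.1 and 28.5 FPKM in Ddx6-KO at day 2. Gulp1, an adaptor of engulfment, went from 10.4 and 10.9 to 71.5 and 66.3 FPKM in Ddx6-KO, against 17.7 and 15.1 and then 14.4 and 10.9 FPKM in TOM. Trp53inp1, a p53-inducible stress gene, went from 17.4 and 16.2 to 135 and 125 FPKM in Ddx6-KO, against 19.2 and 17.9 and then 21.2 and 23.9 FPKM in TOM. For these 3 genes, all 6 other libraries lay below both Ddx6-KO day 2 libraries. Their differences were 4.36, 2.94 and 2.61 (limma, adjusted p = 0.00107, 0.00148 and 0.00107).

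Mmp2, a gelatinase of fibroblasts, stood at 216 and 199 FPKM and then 206 and 204 FPKM in TOM and went from 257 and 238 to 882 and 807 FPKM in Ddx6-KO. Postn, the matricellular protein periostin, stood at 624 and 591 FPKM and then 592 and 569.8 FPKM in TOM and rose in Ddx6-KO from 101 and 104 to 434 and 412 FPKM. Pdgfra, a receptor that marks fat progenitors, went from 52.3 and 55.6 to 129 and 118 FPKM in Ddx6-KO against 113 and 105 and then 106 and 104 FPKM in TOM. The differences were 1.79, 2.1 and 1.23 (limma, adjusted p = 0.00271, 0.00124 and 0.0111). That of Pdgfra was lost with either Ddx6-KO day 0 or either TOM day 2 library dropped, and after TPM rescaling. The long RNA Mir99ahg, host of the miR-99a cluster, stood at 11 and 17.5 and then 8.94 and 12.6 FPKM in TOM and went from 2.42 and 1.01 to 22.8 and 25.9 FPKM in Ddx6-KO. Peg10, an imprinted retrotransposon-derived gene, stayed under 1 FPKM in TOM and went from 3.12 and 1.65 to 20.9 and 15.3 FPKM in Ddx6-KO, and Dmd, dystrophin, went there from 1.58 and 5.97 to 55.2 and 59.5 FPKM. Dmd was at 0.228 and 0.0833 and then 0.258 and 0.833 FPKM in TOM. The call of the difference for Peg10 was lost with any TOM library, Ddx6-KO day 0 library 2 or Ddx6-KO day 2 library 1 dropped, and that for Dmd with any TOM or either Ddx6-KO day 2 library dropped. Both were lost after TPM rescaling.

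Of the 114 genes that fell only in Ddx6-KO, 73 had been higher there before induction. Serpinb2, plasminogen activator inhibitor 2, stood at 67.2 and 63.4 FPKM in Ddx6-KO at day 0 and at 0.371 and 1.3 FPKM at day 2, against 0.821 and 0.486 and then 0.448 and 0.203 FPKM in TOM. Nos2, the inducible nitric oxide synthase, stood at 56.1 and 53.1 and then 0.666 and 0.488 FPKM, against 0.631 and 1.53 and then 0.706 and 0.273 FPKM in TOM. Ptgs2, the inducible cyclooxygenase, stood at 61.8 and 57.5 and then 3.04 and 2.84 FPKM, against 2.13 and 1.78 and then 3.22 and 1.97 FPKM in TOM. In all 3, the Ddx6-KO day 0 libraries alone were high and the lines overlapped at day 2. Serpinb2 and Nos2, at 1.53 FPKM or less in TOM at day 0, had little room to fall there. The differences were -4.9, -4.68 and -4.21 (limma, adjusted p = 0.00157, 0.00157 and 0.00107).

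Further genes of this class differed in where they ended. Cxcl1, a neutrophil chemokine, went from 306 and 317 to 46.2 and 46.1 FPKM in Ddx6-KO against 55.6 and 56.7 and then 50.1 and 46 FPKM in TOM. Sprr2d, a small proline-rich protein of epithelial barriers, stood at 13 and 8.98 FPKM in Ddx6-KO at day 0 and was listed at 0 in the other 6 libraries. Ccl3 and Mmp10 stood at 29.9 and 18.2 and at 18.6 and 16 FPKM in Ddx6-KO at day 0 and at 1.11 FPKM or less elsewhere. Their calls were lost with any TOM or either Ddx6-KO day 0 library dropped. Csf2, the granulocyte-macrophage growth factor, is not one of the 114, since its change in TOM was -0.99. It stood at 28.3 and 22.4 FPKM in Ddx6-KO and 0.662 and 1.37 FPKM in TOM at day 0 and was listed at 0 in all 4 day 2 libraries. The BMP antagonist gene Grem1 changed by -3.28 in Ddx6-KO and by -0.42 in TOM (95% interval of the second -0.78 to -0.06). The proteoglycan gene Dcn, decorin, went from 460 and 449.7 to 85.5 and 74.9 FPKM in Ddx6-KO, a change of -2.49 against -0.45 in TOM. Prl2c2, another proliferin, ended below TOM in Ddx6-KO, at 2.98 and 2.32 against 37.2 and 42.2 FPKM. Noct, a rhythmically expressed phosphatase gene, and Ero1l, an oxidase of disulphide formation, differed by -3.01 and -2.86.

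**Figure D3:**
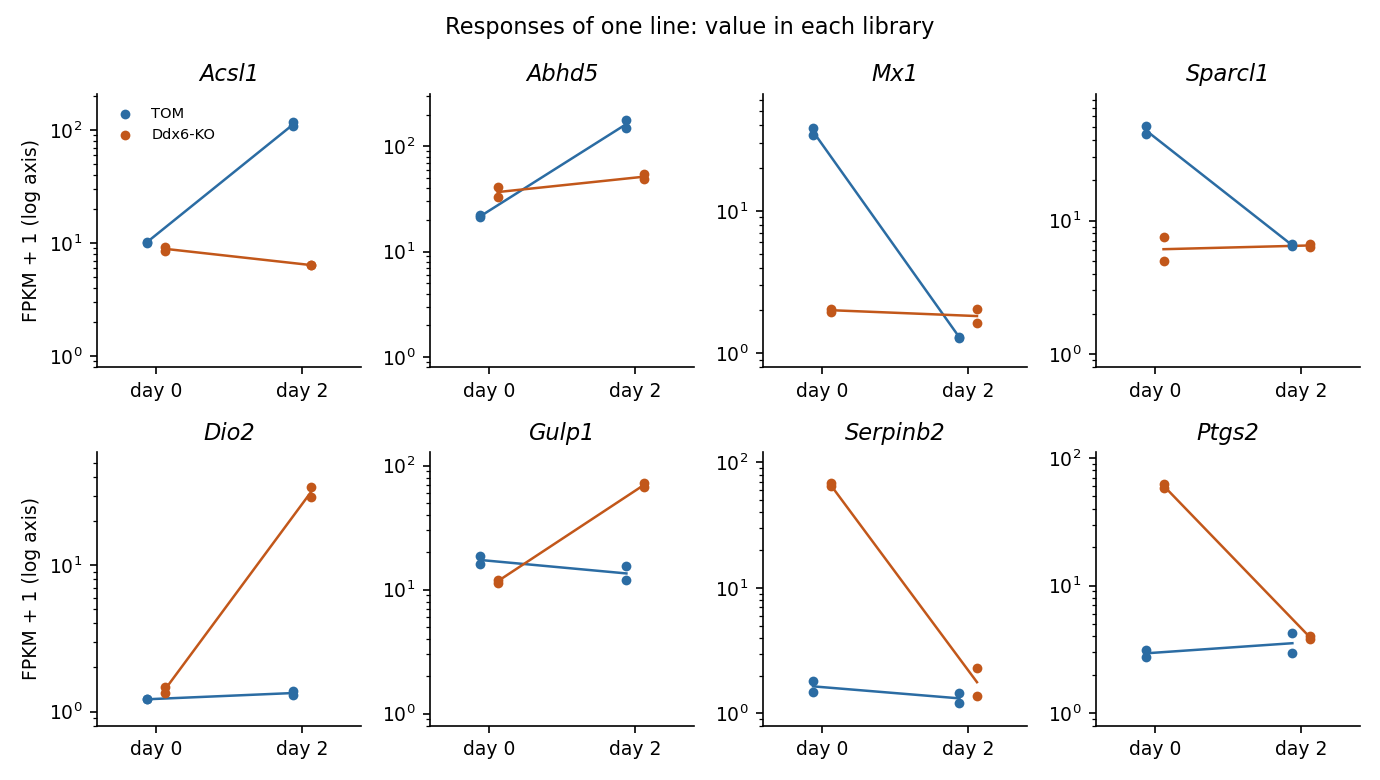
FPKM + 1 on a log axis at day 0 and day 2 for 8 genes with a response in one line, drawn as in the plot of opposite responses. Upper row, genes that changed in TOM (blue) and not past the threshold in Ddx6-KO (orange). Lower row, genes that changed in Ddx6-KO only, with Serpinb2 and Ptgs2 high in the Ddx6-KO day 0 libraries alone.

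The Ddx6-KO-only genes that rose numbered 24 and 21 with Ddx6-KO day 0 library 1 or 2 dropped, 30 and 28 with TOM day 2 library 1 or 2 dropped, 44 and 41 with TOM day 0 library 1 or 2 dropped, 38 with Ddx6-KO day 2 library 1 dropped and 48 with Ddx6-KO day 2 library 2 dropped. Those that fell numbered 21 with either Ddx6-KO day 0 library dropped, 26 and 31 with TOM day 2 library 1 or 2 dropped, and 57 with either TOM day 0 library dropped. The test of the difference held without any single library for 13 of the 75 and 18 of the 114. Of 212 small RNA genes tested, 9 were called, a share close to that of all genes (663 of 15811). The 3 most extreme, the snoRNA genes Gm23456, Gm24147 and Gm25857, chosen after their values were seen, were listed at 0 in 5 or 6 libraries, and short RNAs are poorly measured by FPKM.

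Whether a difference of responses came with a gap between the lines before induction, after it or at both days was counted next. Ddx6-KO and TOM libraries differed at day 0 for many genes, with 6.55% of all genes tested higher and 4.81% lower in Ddx6-KO, and at day 2 for 10.4% and 8.58%. The calls between the lines numbered 1796 at day 0 and 2995 at day 2. The first count was 449 and 394 with Ddx6-KO day 0 library 1 or 2 dropped, 746 and 1185 with TOM day 0 library 1 or 2 dropped. The second was 1199 and 1261 with TOM day 2 library 1 or 2 dropped and 1592 with Ddx6-KO day 2 library 1 dropped. These comparisons use the same libraries as the difference of responses, so the counts below describe the 663 genes and test nothing. The lines stood apart at day 2 only for 302 of them, at day 0 only for 205 and at both days for 155, in opposite directions for 107 of the 155. One gene stood apart at neither.

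The classes divided unevenly. Of the 114 genes that fell in Ddx6-KO only, 73 were higher in Ddx6-KO at day 0, with a median of 0.96, and 57 were lower there at day 2. Of the 80 that fell in TOM only, 43 were lower in Ddx6-KO at day 0 and 46 higher at day 2. The genes that rose in one line only stood closer at day 0. Of the 73 that rose in TOM only, 45 did not differ past the threshold at day 0 and 55 were lower in Ddx6-KO at day 2, and of the 75 that rose in Ddx6-KO only, 46 did not differ at day 0 and 57 were higher at day 2. Of the 56 that rose in TOM and fell in Ddx6-KO, 40 were higher in Ddx6-KO at day 0 and 47 lower at day 2. Il13ra1 was of this kind, with a gap of 2.23 at day 0 and of -1.81 at day 2, while Mgst3 had a gap of -0.25 at day 0 and of -3.8 at day 2.

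Where both lines moved the same way, the difference was one of size. Of 23 genes that rose in both, Tsc22d3, a glucocorticoid-induced leucine zipper gene, went from 20 and 16.1 to 78.9 and 86.4 FPKM in TOM and from 13.1 and 11 to 371 and 381 FPKM in the libraries labelled Ddx6-KO. Cxcl13, a B-cell chemokine, reached 4.09 and 2.96 FPKM in TOM and 33.9 and 30.5 FPKM in Ddx6-KO from under 1 FPKM in both. Sned1, a matrix protein, went from 51.4 and 72.5 to 264 and 229 FPKM in TOM and from 13.9 and 14.8 to 320.5 and 292 FPKM in Ddx6-KO, the lines standing apart past the threshold at day 0 but not at day 2. Il1rn, the interleukin-1 receptor antagonist, rose by 4.94 in TOM against 1.48 in Ddx6-KO, from a higher start in Ddx6-KO. The differences were 2.72, 2.74, 2.33 and -3.45 (limma, adjusted p = 0.00132, 0.00621, 0.00442 and 0.00977). Among 37 genes that fell in both, the change of Spp1 was -2.67 in TOM and -4.69 in Ddx6-KO, whereas Thbs2, thrombospondin 2, had changes of -3.08 and -1.36. Spp1 lost its call under quantile normalization. The call held without any single library for 4 of the 23 and 7 of the 37, among them the genes just named.

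Genes were then grouped by pathway. Of 19 tested genes of glycolysis, 14 had a lower response in Ddx6-KO than TOM and none a higher one, and the median difference was -1.70. Over all genes tested 2.17% were lower and the median was 0.04. In TOM, 6 rose and none fell, and in Ddx6-KO 16 fell and none rose. At day 0, 14 were higher in Ddx6-KO, and at day 2, 8 were lower and 1 was higher. Ldha, lactate dehydrogenase A, went from 102 and 85.7 to 199 and 201 FPKM in TOM and from 237 and 223 to 59.4 and 65.5 FPKM in Ddx6-KO, so that the lines changed places. Eno1 (enolase) and Pkm (pyruvate kinase) also did so, with differences of -2.34 and -1.75, while Aldoa (aldolase) went from 679.8 and 601 to 230.3 and 223 FPKM in Ddx6-KO, its change of 0.53 in TOM being one that missed the threshold (limma, adjusted p = 0.114). Pseudogenes of Ldha and Eno1 are in the table, among which reads may be split. The count of 14 was 7 with either Ddx6-KO day 0 library dropped, 7 and 8 with TOM day 2 library 1 or 2 dropped, and 9 with TOM day 0 library 2 dropped.

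Genes that hypoxia-inducible factors switch on overlap this pathway in function. Of 17 tested, 9 had a lower response in Ddx6-KO and none a higher one (median -1.71). In TOM 5 rose and 1 fell, and in Ddx6-KO 1 rose and 9 fell. At day 0, 10 were higher and 1 lower in Ddx6-KO (median 1.45). By day 2, 1 was higher and 6 were lower there (median -0.37). P4ha2, a prolyl hydroxylase of collagen, went from 29.2 and 32 to 58.1 and 62.1 FPKM in TOM and from 93.3 and 103 to 25.5 and 29.3 FPKM in Ddx6-KO. Bnip3, a mitophagy receptor, went from 17.5 and 15.8 to 43.2 and 39.1 FPKM in TOM and from 99.1 and 94.4 to 42.4 and 39.8 FPKM in Ddx6-KO, so that the lines met at day 2. The differences were -2.76 and -2.47 (limma, adjusted p = 0.000875 and 0.00107). The count of 9 was 6 with library 2 of TOM day 0, a Ddx6-KO day 0 or a TOM day 2 library dropped.

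Since hypoxia-inducible factors bind the letters ACGTG, the promoters of these genes were searched for them on both strands. Windows of 250 bases before and 50 after the start came from RefSeq (GRCm38.p6), 1 per gene. A palindrome CACGTG counts on each strand. The letters were in 6 of 8 called hypoxia genes with a window (75%) and 5 of 14 called glycolysis genes (35.7%), against 19.7% of 27025 windows in all and 25.4% of 10086 windows of tested genes. Among genes with a window that fell in TOM and rose in Ddx6-KO, 9 of 24 held them (37.5%), and of the reverse kind 12 of 40 (30%). Over the classes of called genes the share ran from 10.5%, 2 of 19 that rose in both lines, to 56.2%. The last, 9 of 16, was of genes that passed as a rise in TOM with an unpassed change of 0.5 or more in Ddx6-KO. Uncalled members of the 2 lists were not counted, and whether the letters go with a lower response in Ddx6-KO was not tested. Stretches of 3 windows of called hypoxia or glycolysis genes are shown for their matches, which are in capitals.
Ldha promoter, chr7:46845644-46845803, plus strand: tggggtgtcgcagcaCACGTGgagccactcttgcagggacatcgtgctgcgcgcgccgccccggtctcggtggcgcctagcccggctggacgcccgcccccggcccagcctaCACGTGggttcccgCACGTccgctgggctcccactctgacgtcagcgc
Bnip3 promoter, chr7:138909557-138909657, minus strand: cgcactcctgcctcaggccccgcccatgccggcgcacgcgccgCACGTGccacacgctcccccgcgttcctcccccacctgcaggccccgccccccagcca
P4ha2 promoter, chr11:54100823-54100952, plus strand: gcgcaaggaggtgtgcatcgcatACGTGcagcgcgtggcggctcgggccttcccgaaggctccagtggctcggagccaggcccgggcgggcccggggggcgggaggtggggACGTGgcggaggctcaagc

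The Ldha window held 5 matches, the first at 145 bases before the start, that of Bnip3 2 that share a palindrome, and that of P4ha2 2, one on each side of the start. A match describes letters and says nothing of binding in these cells.

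Interferon response genes ran the other way. Of 38 tested, 18 had a higher response in Ddx6-KO and none a lower one (median 1.77). In TOM 37 fell, with a median of -3.42, and in Ddx6-KO 30 fell, with a median of -1.43. None rose in either line. At day 0, 31 were lower in Ddx6-KO, and at day 2, 4 were lower and 3 higher. Ifit3, an antiviral protein that binds foreign RNA in a complex, went from 154 and 144 to 0.256 and 0.926 FPKM in TOM and from 21.6 and 13.8 to 1.69 and 1.24 FPKM in Ddx6-KO. Igtp, an interferon-gamma-induced GTPase, went from 41.6 and 38.9 to 0.728 and 0.789 FPKM in TOM and from 6.66 and 4.47 to 2.16 and 2.11 FPKM in Ddx6-KO. Ifit3 and Igtp thus ended at 2.16 FPKM or less in all libraries, near the floor, and their lower start in Ddx6-KO left less room to fall. Both differences, 3.69 and 3.51, held without any single library (limma, adjusted p = 0.00405 and 0.00164). Of the antigen presentation genes, Tap1, the peptide transporter, was the 1 of 14 that passed, at 2.12. Macrophage markers stood at the low sums given above, and their part in these values was not tested. Ifit3 and Ifit3b are close copies whose reads may be split. The count of 18 was 11 and 4 with Ddx6-KO day 0 library 1 or 2 dropped, 10 and 8 with TOM day 0 library 1 or 2 dropped, and 11 with either TOM day 2 library dropped.

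The core of the interferon-stimulated response element, GAAANNGAA, was searched in the same windows and can overlap itself. It was in 9 of 11 called interferon genes with a window (81.8%), against 8.57% of all windows and 7.39% of those of tested genes. The list was chosen as interferon response genes. Its uncalled members were not counted, so this share does not tie the core to a different response. Of 37 called genes that fell in both lines, 24 had a window and 17 of these held the core (70.8%). Of 80 that fell in TOM only, 63 had a window and 10 of these held the core (15.9%). Both kinds hold genes of the list, such as Ifit3, Igtp and Bst2. A called gene of each kind of fall is shown, with matches in capitals.
Ifit3 promoter, chr19:34583359-34583458, plus strand: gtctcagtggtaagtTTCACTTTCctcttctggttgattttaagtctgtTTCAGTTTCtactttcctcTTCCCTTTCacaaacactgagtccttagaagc
Igtp promoter, chr11:58199476-58199575, plus strand: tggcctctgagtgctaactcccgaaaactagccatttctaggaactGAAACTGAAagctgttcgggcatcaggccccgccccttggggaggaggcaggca
Bst2 promoter, chr8:71537533-71537632, minus strand: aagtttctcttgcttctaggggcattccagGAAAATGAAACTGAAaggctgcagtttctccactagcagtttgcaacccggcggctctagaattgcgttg

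Ifit3 held 3 matches, all on the minus strand, Igtp 1 and Bst2 an overlapping pair. Ifit3 and Igtp fell in both lines and Bst2 in TOM only.

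Of 18 tested chemokines and cytokines, 9 had a lower response in Ddx6-KO and 1, Cxcl10, a higher one (median -1.52). In Ddx6-KO 12 fell and none rose, and at day 0, 9 were higher there and 4 lower. Il6 went from 1.72 and 1.5 to 4.03 and 4.16 FPKM in TOM and from 16.2 and 15.9 to 4.06 and 3.42 FPKM in Ddx6-KO, overlapping at day 2. The change of Ccl7, a monocyte chemokine, was -1.26 in TOM and -4.24 in Ddx6-KO. That of Cxcl10, itself an interferon-induced gene, was -4.07 in TOM and -2.29 in Ddx6-KO. It was named after its values were seen. The 9 lower genes were 4 and 6 with Ddx6-KO day 0 library 1 or 2 dropped, 5 with TOM day 0 library 1 dropped and 6 and 5 with TOM day 2 library 1 or 2 dropped, and Cxcl10 lost its call with any library other than Ddx6-KO day 2 library 2 dropped, after TPM rescaling and under quantile normalization. The binding letters of NF-kappaB, GGANTTTCC, were in 3 of 7 of these called genes with a window (42.9%), against 1.23% of all and 1.32% of tested genes' windows. The letters of AP-1, TGANTCA, were in as many of the 7 and in 5 of the 11 interferon genes (45.5%), against 7.93% of all and 5.18% of tested genes' windows. Of the 7, 2 each (28.6%) held the interferon letters, the glucocorticoid receptor palindrome ACANNNTGT (6.9% of all and 4.01% of tested) and the CREB core TGACG (21% and 31.6%). The last was also in 4 of the 11 interferon genes (36.4%). In all, 8 motifs were searched, the others being TTGCNNCAA of C/EBP and CACNCCAC of SREBP. The C/EBP letters were in none of 7 called adipocyte markers with a window, against 2.12% of all and 1.68% of tested genes' windows. Those of SREBP were in 1 of 5 called cholesterol genes with a window (20%), against 6.12% and 5.96%. Uncalled members of these lists were not counted, so no share here ties the letters to a different response. The NF-kappaB matches of Cxcl1, from the class that fell in Ddx6-KO only, and Il6, from the class with opposite responses, are shown with the match in capitals.
Cxcl1 promoter, chr5:90891134-90891234, plus strand: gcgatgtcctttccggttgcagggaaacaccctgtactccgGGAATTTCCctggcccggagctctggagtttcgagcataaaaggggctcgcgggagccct
Il6 promoter, chr5:30013034-30013133, plus strand: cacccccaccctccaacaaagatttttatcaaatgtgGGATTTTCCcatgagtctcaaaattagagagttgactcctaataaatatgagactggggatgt

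**Figure D4:**
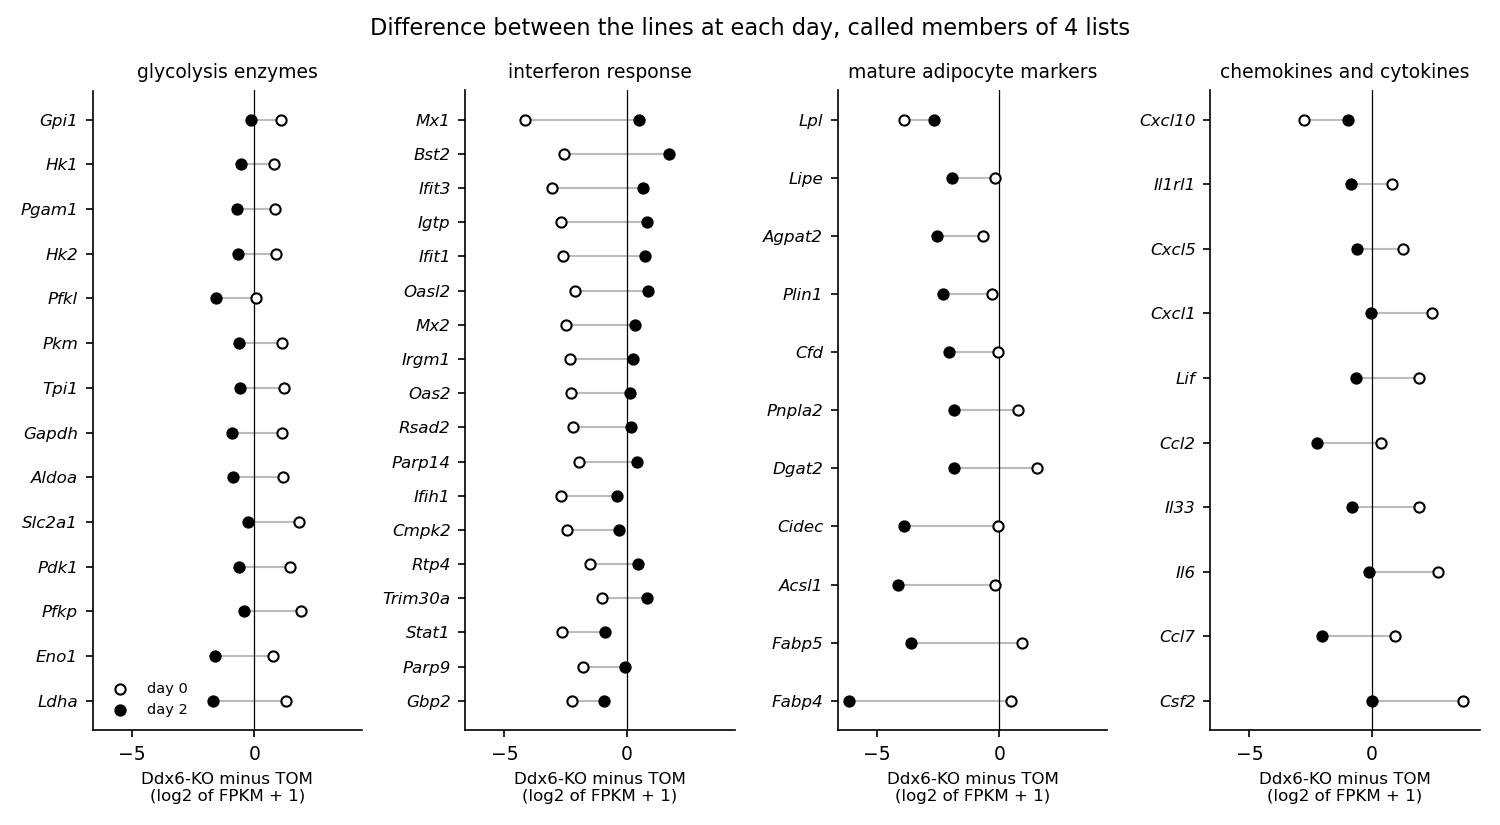
Ddx6-KO minus TOM in log2(FPKM + 1) at day 0 (open circles) and day 2 (filled circles), 1 row per gene, for the genes of 4 lists whose response differed. All 14 glycolysis genes lie at or right of 0 at day 0 and left of it at day 2, and all 18 interferon genes lie left of 0 at day 0. Adipocyte genes such as Cidec and Acsl1 lie near 0 at day 0 and far left at day 2, while Cxcl1, Il6 and Csf2 lie right at day 0 and near 0 at day 2.

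Markers of mature adipocytes rose in TOM and stood below TOM in Ddx6-KO at day 2. Of 20 tested, 10 had a lower response in Ddx6-KO and 1, Lpl, a higher one (median -1.77). In TOM 14 rose and 1 fell, in Ddx6-KO none rose and 2 fell, and 16 were lower and none higher in Ddx6-KO at day 2, against 3 lower and 1 higher at day 0. Fabp5, a second fatty acid carrier, went from 5.21 and 5.1 to 55.6 and 71.7 FPKM in TOM and from 12.7 and 8.76 to 6.11 and 2.83 FPKM in Ddx6-KO. The 10 numbered 4 with either TOM day 2 library dropped and 5 with any day 0 library dropped, and Lpl lost its call whichever library was dropped and after TPM rescaling. The sterol regulator gene Srebf1 was the 1 of 9 second-wave factors with a different response, at -1.54 (limma, adjusted p = 0.0147), lost with a Ddx6-KO day 0 library or the first TOM day 2 library dropped. Of 18 genes of fatty acid and triglyceride synthesis, 5 had a lower response in Ddx6-KO and none a higher one, with Scd1, the stearoyl-CoA desaturase, going from 9.3 and 9.37 to 20 and 16.7 FPKM in TOM and from 31.3 and 29.3 to 8.32 and 8.5 FPKM in Ddx6-KO. The 5 were 2 with a Ddx6-KO day 0 library or library 1 of TOM day 2 dropped and 3 with library 2 of TOM day 2 dropped.

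Genes of cholesterol synthesis and uptake fell in Ddx6-KO. Of 23 tested, 11 had a lower response in Ddx6-KO and none a higher one (median -1.44), and 8 of the 11 responded in Ddx6-KO only. In TOM 2 fell and none rose, in Ddx6-KO 17 fell, and 16 were higher in Ddx6-KO at day 0. At day 2, 5 were lower and 2 higher in Ddx6-KO, with a median of -0.03 over the list. Hmgcs1, an enzyme of mevalonate synthesis, stood at 43.4 and 45.1 and then 52.5 and 48.4 FPKM in TOM and went from 118 and 105 to 29.9 and 28.7 FPKM in Ddx6-KO. The 95% interval of the TOM change for Hmgcs1 was -0.12 to 0.49. The count of 11 was 2 with either Ddx6-KO day 0 library dropped, 3 with either TOM day 2 library dropped, and 5 and 6 with TOM day 0 library 1 or 2 dropped.

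Some dehydrogenases and lysosomal genes had higher changes in Ddx6-KO. Of 17 tested aldehyde, alcohol and aldo-keto enzymes, 7 were higher and none lower (median 0.59). Aldh3a1, an aldehyde dehydrogenase, went from 10.4 and 6.73 to 5.98 and 2.35 FPKM in TOM and from 4.81 and 3.01 to 78.6 and 78.4 FPKM in Ddx6-KO, a difference of 5 (limma, adjusted p = 0.00369). The 7 were 3 with either Ddx6-KO day 0 library dropped and 4 with either TOM day 2 library dropped, and 1 or 2 members were lower with library 2 of TOM day 0 or library 1 of Ddx6-KO day 2 dropped. After TPM rescaling 6 were higher and 1 was lower. Of 29 lysosome and autophagy genes, 7 were higher and none lower (median 0.68), 6 of the 7 as a fall in TOM only. Hexa, a subunit of beta-hexosaminidase, went from 99.5 and 82.3 to 27.4 and 35.1 FPKM in TOM and from 19.1 and 15.4 to 25.2 and 22.8 FPKM in Ddx6-KO, low from the start. The 7 were 1 and 0 with Ddx6-KO day 0 library 1 or 2 dropped, 3 and 4 with Ddx6-KO day 2 library 1 or 2 dropped, 3 with TOM day 0 library 1 dropped, 2 and 3 with TOM day 2 library 1 or 2 dropped, and 2 after TPM rescaling.

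Among matrix genes, members of a family moved both ways. Of 18 tested collagens, 3 had lower changes in Ddx6-KO (Col6a3, Col18a1, Col5a3) and 1 a higher one (Col11a1). Col6a3, a chain of the microfibrillar collagen around cells, went from 115 and 120.3 to 239 and 218 FPKM in TOM and from 136 and 135 to 58.4 and 48.3 FPKM in Ddx6-KO. Of 13 basement membrane genes, 5 were lower, among them the laminin chain genes Lamc1 (-1.62) and Lama4 (-1.23), and 1, Sparcl1, was higher. The 5 were 2 with a Ddx6-KO day 0 library or library 1 of TOM day 2 dropped, and 3 with library 1 of Ddx6-KO day 2, library 1 of TOM day 0 or library 2 of TOM day 2 dropped. Of 9 small leucine-rich proteoglycans, Ogn and Aspn (asporin, 2.49) were higher and Dcn was lower. The inhibitor gene Timp1 went from 299.9 and 302 to 30.1 and 29.5 FPKM in Ddx6-KO and stood at 85.7 and 70.7 and then 55 and 47.1 FPKM in TOM (difference -2.69). Acta2, smooth muscle actin, went from 52 and 51 to 1.5 and 3.62 FPKM in TOM and from 1.51 and 1.88 to 3.72 and 3.39 FPKM in Ddx6-KO (difference 4.71), and Ccn2, a YAP target, was listed at 0 in both TOM day 2 libraries and went from 3.9 and 3.69 to 17.4 and 15.4 FPKM in Ddx6-KO.

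**Figure D5:**
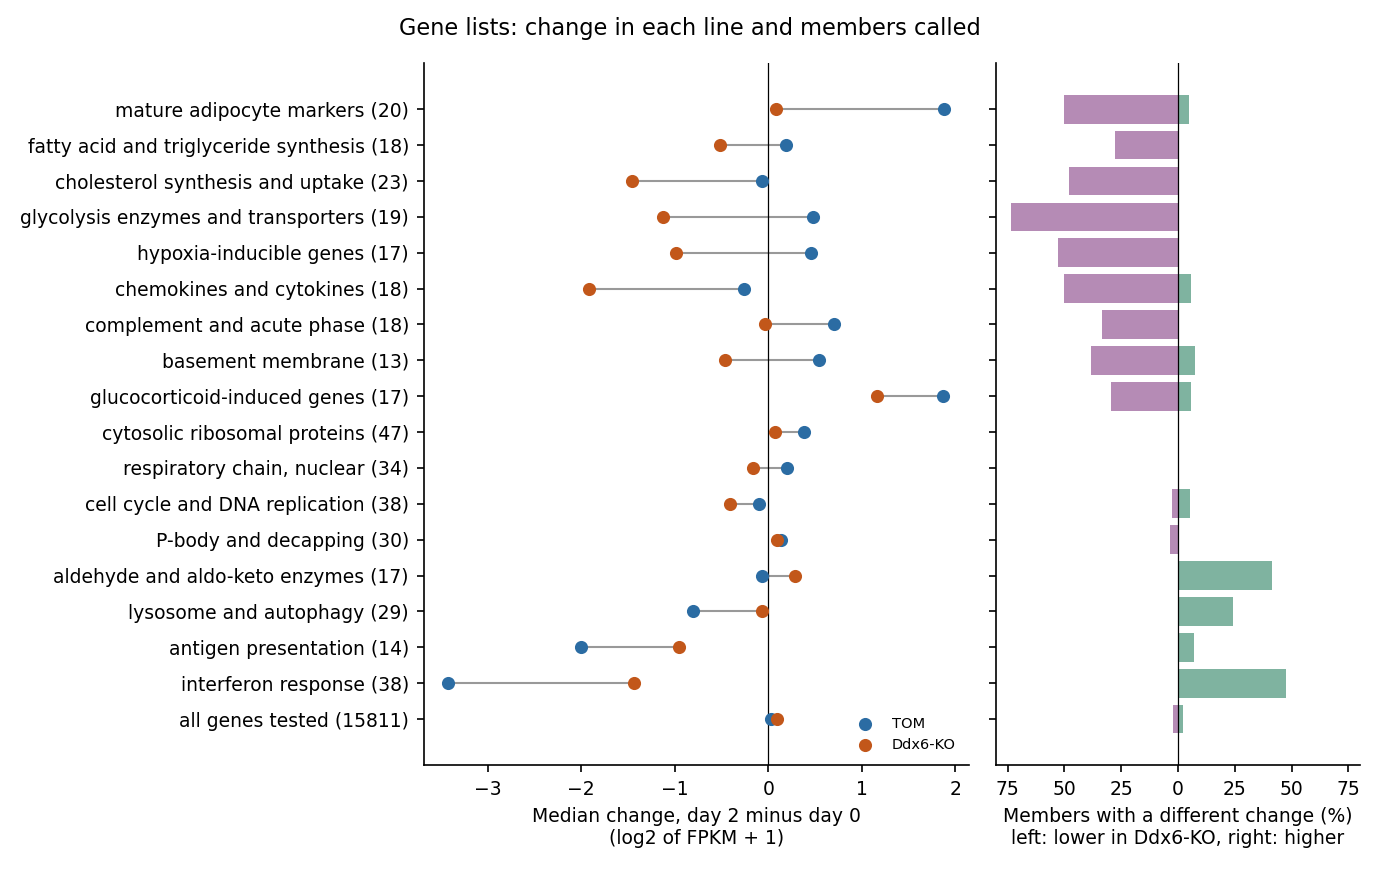
Left, the median change from day 0 to day 2 in TOM (blue) and Ddx6-KO (orange), in log2(FPKM + 1), for 17 gene lists and all genes tested, with the number of tested members in brackets. Right, the share of tested members whose response differed, lower (purple) or higher (green) in Ddx6-KO. Glycolysis has the largest share of lower members (73.7%) of the lists drawn, and no ribosomal protein or respiratory chain gene was called.

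Several groups gave no or few calls. Over all genes tested, 2.02% had a higher and 2.17% a lower response in Ddx6-KO, so few calls say little in lists of these sizes. Ribosomal protein genes were lower in Ddx6-KO than TOM for 8 of 47 at day 0 and 19 at day 2. So were 4 and 7 of 10 snoRNA host genes, against 4.81% and 8.58% of all genes, and none of either group was higher. Of 47 ribosomal protein genes, 34 nuclear genes of the respiratory chain, 11 mitochondrial mRNAs and 10 snoRNA host genes, none had a different response (limma). One ribosomal protein gene was called with Ddx6-KO day 2 library 2 dropped, 1 respiratory gene with Ddx6-KO day 2 library 1 dropped and 1 with TOM day 0 library 1 dropped, and 1 snoRNA host gene after TPM rescaling. Of 38 cell cycle genes, Ccnd1 (cyclin D1, 1.32) and Top2a (1.38) had a higher and Ccne1 (-2.57) a lower change in Ddx6-KO. None of the 3 was called with either Ddx6-KO day 0 or either TOM day 2 library dropped, and Ccnd1 and Top2a were not after TPM rescaling. Of 30 genes of processing bodies and decapping, 1 passed, Lsm4, a subunit of Sm-like protein rings that bind RNA, which stood at 14.9 and 20 and then 17.4 and 20.2 FPKM in TOM and went from 17.8 and 16.4 to 5.26 and 4.61 FPKM in Ddx6-KO. Its call was lost without either Ddx6-KO day 0 or either TOM day 2 library. Of glucocorticoid-induced genes, 11 of 17 rose in TOM and 9 in Ddx6-KO, and 5 had a lower and 1, Tsc22d3, a higher change in Ddx6-KO. The 5 were 3 with either Ddx6-KO day 0 or either TOM day 2 library dropped.

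For regulators that the study follows, the test of the difference was mostly not passed. Cebpb rose by 0.96 in TOM, and its change in Ddx6-KO was 0.21 (difference -0.75, 95% interval -1.17 to -0.32, limma, adjusted p = 0.073). Cebpd rose by 1.37 and 0.84 (difference -0.53, 95% interval -0.97 to -0.1). Cebpa stood at 1.96 and 1.07 and then 5.25 and 4.6 FPKM in TOM and under 1 FPKM in all Ddx6-KO libraries (difference -1.28, 95% interval -2.25 to -0.31, limma, adjusted p = 0.157). Among mesenchymal factors, Snai1 passed, going from 4.26 and 8.43 to 28.1 and 26.1 FPKM in TOM and from 12.2 and 12.5 to 14.7 and 11.3 FPKM in Ddx6-KO (difference -1.94, limma, adjusted p = 0.0408). Its call was lost with any library other than TOM day 0 library 2 dropped. By RT-qPCR against Gapdh, the study reports a gradual fall of Snai1 in native cells and the same course in mock cells, unlike the rise in TOM here. Snai2, Twist1, Twist2, Zeb1 and Zeb2 did not pass. Their differences had 95% intervals of -1.26 to 1.3 for Snai2, 0.18 to 2.4 for Twist1, 0.09 to 1.83 for Twist2, -0.43 to 0.71 for Zeb1 and -1.87 to 0.51 for Zeb2, none adjusted over the genes tested. The interval of Dlk1, an inhibitor of adipogenesis, was -1.38 to 0.99, and its level went from 358 and 616 to 167 and 175 FPKM in TOM and from 70.3 and 57 to 27.9 and 13.5 FPKM in Ddx6-KO. The study states that Dlk1 was maintained in Ddx6-KO cells during induction. In these values it was lower at day 2 than at day 0 in both lines, and lower in Ddx6-KO than TOM at both days.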

How the data were processed

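Total RNA of 8 libraries of 3T3-L1 cells, 2 for each line and day, was made into stranded libraries with a TruSeq total RNA kit and sequenced from both ends. The authors converted base calls with bcl2fastq, ran quality control with the FASTX Toolkit, PRINSEQ and FastQC 0.11.2, aligned reads with TopHat2 2.1.0 to GRCm38 (mm10) and deposited FPKM per gene from Cufflinks 2.2.1. The release of the gene annotation was not given in the sources used here. FPKM keeps no counts, so no count test was run, and at these depths low values carry large counting error. FPKM is relative to all fragments of a library, so the share taken by abundant small RNAs enters the value of every other gene.

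FPKM was analysed as log2(FPKM + 1) for genes with 1 FPKM or more in 2 or more libraries. A model of 4 group means was fitted to all 8 libraries with limma 3.58.1 in R 4.3.3 (empirical Bayes with a variance trend), and p-values were adjusted over all genes tested by the Benjamini-Hochberg method at 0.05. The difference of responses was the change from day 0 to day 2 in Ddx6-KO minus that in TOM, and genes that passed were classed by the test of the change in each line, with a limit of 0.5 on the change in the other line. The study's own methods name no test of this difference. Intervals are 95% intervals of the fit.

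Genes to be named were the 10 largest differences of each opposite or one-line class, the 5 largest of each same-direction class (mean of 1 FPKM or more, official symbol), and up to 4 members of each gene list by p-value. Ddx6 and genes that the study follows were added, and Lpl, Cxcl10 and 3 snoRNA genes were taken outside this rule. A few results that the rule names are not reported here. The 47 pathway and 8 marker lists, and the genes described, were chosen with earlier results of these data known. Names and coordinates came from GENCODE M21 (45225 of 46073 identifiers matched) and promoter windows from RefSeq (GRCm38.p6). Python 3.11.15 with pandas 2.3.3, numpy 2.4.6 and matplotlib 3.10.9 was used for the rest.

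For 3 columns, the number in the column name is in no title of the group, so they were assigned to their group only. Library numbers in the text are those of the columns. Same-numbered libraries of different groups did not deviate together (correlations -0.0958 to 0.0666), so libraries were not paired. Alternatives were other pseudocounts, low-value limits and scalings, a fit with no variance trend, untransformed FPKM, a replicate block, another threshold and each library left out in turn.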

Additional observations from a re-analysis of the deposited data

Results flagged for a closer look

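In 19 genes reported here from among the largest differences of each opposite class, the 2 libraries of one line moved one way and those of the other line the opposite way, and the difference passed a direct test (limma, adjusted p under 0.05). These were chosen by the size of that same difference, so the values describe them. On the log2(FPKM + 1) scale, the difference of responses, Ddx6-KO minus TOM, was 9.89 for Apod, 8.28 for Ogn, 5.54 for Akr1c14, 5.03 for Cdh26, 4.33 for P2rx3, 4.14 for Ccl9, 3.9 for Adh7, 3.3 for Fibin, 3.04 for Plk2 and 2.9 for Col11a1. It was -6.63 for Fabp4, -6.23 for Anxa8, -4.84 for Saa3, -4.72 for Fam110c, -4.05 for Il13ra1, -3.95 for Lcn2, -3.55 for Mgst3, -3.39 for Dgat2 and -3.17 for Fosl1. Groups of 2 libraries were too small for a check of single libraries that stand apart.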

How the results depend on the processing

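Each of the 663 genes that an alternative tested kept the sign of its difference, except on untransformed FPKM, where 659 of 663 did. The limit of 5 FPKM tested 621 of them, the fit that left out small RNAs with predicted genes and pseudogenes 597, and those with a library left out 650 to 660. TPM and median-ratio scaling move all genes of a library by the same factor, so kept signs there say little. Other low-value limits, the fit without small RNAs, no variance trend, the block by column number and another threshold leave each difference unchanged. Their kept signs were fixed in advance. Fits with a library left out share their libraries with the main fit, so kept signs there say little either. Counts are given as higher and then lower in Ddx6-KO. Without a low-value filter 194 and 216 genes were called, with 16 and 32 opposite genes (TOM lower and TOM higher), 39 and 39 in TOM only, 45 and 68 in Ddx6-KO only, and 1142 between the lines at day 0. A pseudocount of 5 gave 110 and 124 genes that rose and fell in TOM only and 148 and 180 in Ddx6-KO only. After TPM rescaling 193 were higher, with 19 opposite genes lower in TOM, 33 and 43 in TOM only and 31 that rose in Ddx6-KO only. With no variance trend there were 18 and 31 opposite genes and 48 that rose in TOM only. On untransformed FPKM 528 were lower and 20 opposite genes were lower in TOM, and the difference of Cebpd, below 0 on the log scale, was 83.7 FPKM. An adjusted p under 0.1 (limma) gave 557 and 551, with 61 and 92 opposite, 120 and 141 in TOM only, 158 and 204 in Ddx6-KO only, 1735 calls in TOM, 2623 in Ddx6-KO and 2738 between the lines at day 0.

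With the replicate block by label number 6 and 10 genes were called, with 2 and 2 opposite, 2 and 1 in TOM only, 0 and 1 in Ddx6-KO only, 10 list members, 429 calls in TOM, 137 in Ddx6-KO, 53 between the lines at day 0 and 1115 at day 2. Under that block Ddx6-KO day 0 library 2 is the only library with its number and adds nothing to its group mean. With the block by column number, chosen after seeing the data, TOM-only genes numbered 47 and 44. The numbers do not pair the libraries.

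With each library left out in turn, higher calls ran from 99 to 252 and lower ones from 101 to 345, opposite genes from 9 to 21 (TOM lower) and from 20 to 44 (TOM higher), TOM-only genes from 13 to 61 and from 17 to 55, Ddx6-KO-only genes from 21 to 48 and from 21 to 117, and the 191 list members called from 87 to 166. Calls ran from 523 to 1199 in TOM, from 464 to 1512 in Ddx6-KO, from 394 to 1957 between the lines at day 0 and from 1199 to 2804 at day 2. The lone library left in a group was assumed to vary like the others. Dio2, Cidec and Sprr2d fell below the low-value filter in 2 of these fits and were called in the other 6.

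With 2 libraries a group, a gene that misses the threshold is not shown to respond alike in both lines. The classes rest on thresholds in 2 further tests, and depth limits genes near 1 FPKM most.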

Other observations

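Several gene groups not yet described are given by their counts, against 2.02% of all genes tested with a higher and 2.17% with a lower change in Ddx6-KO. Of 18 complement and acute phase genes, 6 had a lower and none a higher change in Ddx6-KO, with Serpina3g at -2.37 beside Saa3, Lcn2 and Hp. Serpina3g belongs to a family of near-identical protease inhibitors among which reads may be split. The 6 were 3 with library 1 of Ddx6-KO day 0 or library 2 of TOM day 2 dropped. Of 24 genes of amino acid supply and the integrated stress response, 3 were lower, among them Atf4, the factor that drives that response (-1.11), and Mthfd2, a folate enzyme of mitochondria (-1.97). Of 22 endoplasmic reticulum chaperones and unfolded protein response genes, 3 were lower, with Xbp1, a factor whose transcript is spliced under such stress, at -1.9. Both groups of 3 were 0 with library 1 of Ddx6-KO day 0, or either library of TOM day 2, dropped. With library 2 of Ddx6-KO day 0 dropped they were 0 and 1, with library 1 of Ddx6-KO day 2 dropped 2 and 1, and with library 2 of TOM day 0 dropped 2 and 2, while the second was 2 with library 1 of TOM day 0 dropped.

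Of 11 genes that cAMP induces, 2 were higher in Ddx6-KO. Ppargc1a, a co-activator of mitochondrial and thermogenic genes, went from 3.45 and 10.2 to 2.21 and 1.56 FPKM in TOM and from 1.57 and 1.08 to 12.2 and 12.9 FPKM in Ddx6-KO, a difference of 3.85 (limma, adjusted p = 0.0138). The other was Pde4d, a phosphodiesterase that breaks down cAMP, at 1.45. Neither was called with either Ddx6-KO day 0 library dropped or with library 2 of TOM day 2 dropped. Of 17 p53 targets, 3 were higher and 1 lower, with Cdkn1a, the cell cycle inhibitor p21, at -1.61. Cdkn1a was not called with either Ddx6-KO day 0 library dropped or with library 2 of TOM day 2 dropped. The 3 higher were 2 with either Ddx6-KO day 0 library, library 1 of TOM day 0 or library 1 of TOM day 2 dropped. Of 25 genes of TGF-beta and BMP signalling, 1 was higher and 3 lower, with Inhba, an activin subunit, at -3.08 and Id1, a target of BMP, at -1.76. The 3 were 1 with library 1 of Ddx6-KO day 0 or library 2 of TOM day 2 dropped. They were 2 with library 2 of Ddx6-KO day 0, library 2 of Ddx6-KO day 2 or library 1 of TOM day 2 dropped, and the 1 was 0 with any library other than library 2 of Ddx6-KO day 2 dropped. The part of any of these genes in the responses of the others was not tested.

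Among matrix groups, 1 of 19 genes of collagen processing and crosslinking was higher and 6 were lower, with Plod2, a lysyl hydroxylase, at -1.88. The 6 were 1 with either Ddx6-KO day 0 library dropped, 3 with library 1 of Ddx6-KO day 2 dropped, 3 and 2 with library 1 or 2 of TOM day 2 dropped and 4 with either TOM day 0 library dropped, and the 1 was 2 with library 1 of Ddx6-KO day 2 dropped. Of 23 matricellular and glycoprotein genes, 4 were higher and 5 lower, with Fbn1, fibrillin 1, at -2.23, and the 5 were 8 with library 2 of TOM day 0 dropped. Of 17 metalloproteinases and inhibitors, 3 were higher and 3 lower. The lower 3 were 1 with either Ddx6-KO day 0, either TOM day 2 or the first TOM day 0 library dropped and 2 with the second TOM day 0 library dropped. Of 17 contractile and actin genes, 5 were higher and 1 lower, with Myl9, a myosin light chain, at 2.68, and the 5 were 3 with either Ddx6-KO day 0 library, library 1 of Ddx6-KO day 2 or library 2 of TOM day 2 dropped and after TPM rescaling. Of 16 apolipoproteins and lipid carriers, 2 were higher and 5 lower, and the 2 were 1 whichever library was dropped.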
